A study of Mus musculus with 4 samples.

Results

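The 10 immediate early genes Fos, Fosb, Jun, Junb, Egr1, Egr2, Egr3, Nr4a1, Atf3 and Dusp1 were taken by gene symbol from a table of 24972 genes. All 10 were present, and all 10 passed the filter of a mean of at least 1 normalized count. The tissue was the mandibular dental arch, the segment of lower jaw that carries the developing teeth, dissected from mice at embryonic day 17.5. The genotypes were homozygous for an Ascl5 variant (Ascl5MutMut, libraries 18 and 14, called mutant) and homozygous wild type (Ascl5WTWT, libraries 15 and 20). The numbers are the codes in the sample titles, with 2 libraries per genotype. The labels give neither what the variant changes in the gene or protein, nor the strain, the sex of the embryos, the number of embryos per library or the time between dissection and lysis. Nothing says that the libraries came from separate litters, so the spread that p-values measure here may not include differences between litters. The wild-type libraries did not come from the same embryos, as the sex-linked genes Xist and Ddx3y differed between them. Xist was at 38619 in library 15 and 12.7 in library 20, and Ddx3y at 0 and 2490. For the mutant libraries this is not known, and their spread may include technical differences alone.

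Immediate early genes are transcribed within minutes of a stimulus, from promoters that already carry their activators and without new protein synthesis. Growth factor and stress signals reach them through MAP kinases, which phosphorylate ternary complex factors beside serum response factor and the cAMP response element binding proteins. Most of their products are transcription factors, and most of their mRNAs are short-lived. In tissue taken for RNA they are also widely known as genes that respond to cutting, warming and dissociation.

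The 4 libraries summed to between 22134483 and 22578580 normalized counts. These are signal values the authors had already normalized, in a way the labels do not detail, so raw read depth is not known here. Only 32% to 34.6% of the values above 0 lay within 0.1 of a whole multiple of a library's commonest low value, so reads could not be recovered. Ascl5 itself was at 10.6 and 12.1 in mutant libraries 18 and 14, against 21.8 and 37.3 in wild-type libraries 15 and 20. Wild-type library 15 was the only library with high Xist, the non-coding RNA that silences an X chromosome in female cells (38619, against 12.7 or less in the others), so a difference of library 15 and a difference of sex cannot be told apart. All 12 tooth markers and all 8 osteoblast markers of the lists used were detected. Their content differed between libraries within a genotype as well as between genotypes: the tooth markers summed to 12533 and 8318 in mutant libraries 18 and 14 and to 8982 and 16416 in wild-type libraries 15 and 20. Taken singly, 9 of the 12 tooth markers were lower and 3 higher in mutant. In 6 of them both mutant libraries lay below both wild-type libraries, where 27.4% of tested genes separated in either direction. Dlx2 was at 256 and 272 in mutant libraries 18 and 14 and at 523 and 655 in wild-type libraries 15 and 20.

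The promoters of 5 members that were highest in mutant library 14 and lowest in wild-type library 20 are shown here, with that of Nr4a1, which was lower in both mutant libraries. Each is the 250 bases before the RefSeq start of the gene on GRCm38.p6, 5′ to 3′ on the gene's own strand. Capitals mark the core site of the cAMP response element, TGACG, on either strand, and the full element with any middle base, TGACNTCA, which contains the core site when N is G.
Fos, chr12:85473640-85473889 (plus strand): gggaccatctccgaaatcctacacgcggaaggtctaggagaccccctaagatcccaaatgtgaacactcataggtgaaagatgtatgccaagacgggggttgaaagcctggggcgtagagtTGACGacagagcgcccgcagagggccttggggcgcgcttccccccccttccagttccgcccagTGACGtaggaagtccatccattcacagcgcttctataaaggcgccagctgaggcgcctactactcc
Jun, chr4:95052223-95052472 (minus strand): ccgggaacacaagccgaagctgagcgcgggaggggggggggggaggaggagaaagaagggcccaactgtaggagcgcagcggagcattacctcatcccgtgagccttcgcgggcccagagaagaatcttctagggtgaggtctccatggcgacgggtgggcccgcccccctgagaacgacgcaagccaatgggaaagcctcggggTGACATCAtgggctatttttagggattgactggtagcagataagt
Junb, chr8:84978749-84978998 (minus strand): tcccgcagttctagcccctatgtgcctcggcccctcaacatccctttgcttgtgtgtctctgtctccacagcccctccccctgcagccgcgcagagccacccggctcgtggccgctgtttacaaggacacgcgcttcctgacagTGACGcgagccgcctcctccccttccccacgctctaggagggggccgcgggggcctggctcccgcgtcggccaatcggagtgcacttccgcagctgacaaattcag
Atf3, chr1:191183334-191183583 (minus strand): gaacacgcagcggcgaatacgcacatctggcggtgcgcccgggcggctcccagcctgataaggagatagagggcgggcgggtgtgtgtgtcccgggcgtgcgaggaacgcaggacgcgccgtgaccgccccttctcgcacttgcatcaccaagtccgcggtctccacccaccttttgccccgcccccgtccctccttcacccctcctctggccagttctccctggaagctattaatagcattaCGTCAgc
Dusp1, chr17:26508473-26508722 (minus strand): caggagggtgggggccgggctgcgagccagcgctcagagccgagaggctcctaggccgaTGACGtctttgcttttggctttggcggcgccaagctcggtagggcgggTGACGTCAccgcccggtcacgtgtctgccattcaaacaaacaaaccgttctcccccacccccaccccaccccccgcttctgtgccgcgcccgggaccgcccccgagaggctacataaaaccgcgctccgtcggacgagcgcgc
Nr4a1, chr15:101266596-101266845 (plus strand): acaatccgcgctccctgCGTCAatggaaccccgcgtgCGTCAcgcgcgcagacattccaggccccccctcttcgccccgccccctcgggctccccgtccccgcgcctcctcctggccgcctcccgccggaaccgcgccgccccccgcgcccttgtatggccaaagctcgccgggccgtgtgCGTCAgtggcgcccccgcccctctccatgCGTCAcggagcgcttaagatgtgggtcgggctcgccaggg
The RefSeq table held a window for 8 of the 10 members. The core site lay in 7 of those 8, counting Egr2 by any of its 5 start sites, while 17.7% of all 32817 windows held it. In the Fos window it stood 129 and 66 bases before the start, and the Nr4a1 window held 4 copies, at 233, 213, 69 and 40 bases. Jun was the member without it, but its window held TGACATCA, a match to TGACNTCA, as did 7.49% of all windows. The complete palindrome TGACGTCA was found in Dusp1 alone among the members, and in 1.55% of windows. The CArG box, the DNA element bound by serum response factor, lay in windows of Egr2 (1.47% of all windows), and GCGNGGGCG, a site for the EGR zinc fingers, in those of Nr4a1 and Fosb (4.7%). The pattern TGANTCA, which takes in the AP-1 site but allows any middle base, was in none of the 8 (6.75%). These are letter matches on both strands in a short window and say nothing of binding.

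Per kilobase of exon, the level at which genes can be compared with each other, the members spanned a wide range. Jun was the highest, at 573 ± 143 normalized counts per kilobase (SD over all 4 libraries), followed by Egr1 at 356 ± 16.2, and neither overlapped with the gene below it in any library. Junb (231 ± 61.7), Fos (208 ± 25.4), Dusp1 (189 ± 29.3), Egr3 (166 ± 37.2) and Nr4a1 (154 ± 24.6) formed a middle group in which the ranges of neighbouring genes overlapped, so their order does not exceed the spread between libraries. Atf3 (61.4 ± 10.7) and Egr2 (42.0 ± 6.56) lay below them without overlap with each other or with the middle group. Fosb was the lowest, at 10.3 ± 3.68.

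**Figure D1:**
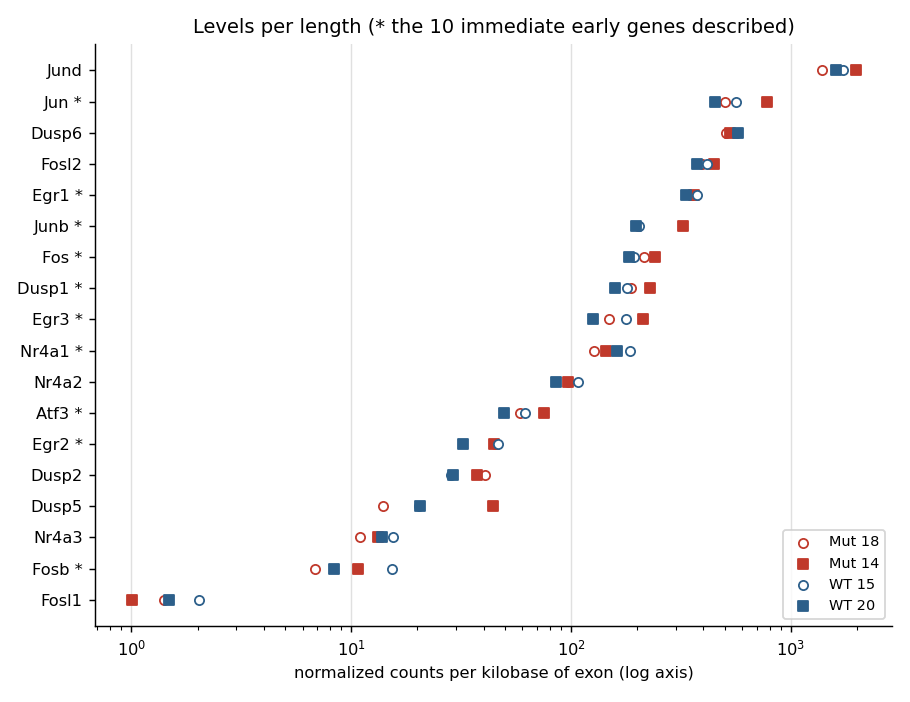
Normalized counts per kilobase of exon (log axis) of the 10 immediate early genes, marked with an asterisk, and their family relatives with a mean above 1, in mutant libraries 18 and 14 and wild-type libraries 15 and 20 (1 point per library). Jun is the highest of the 10 and Fosb the lowest, while the relatives Jund and Fosl2 lie above Junb and Fos.

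In every library the Fos-family and Jun-family members among the 10 were outweighed by a relative outside the 10. AP-1 is a dimer of Fos-family and Jun-family basic leucine zipper proteins, and its binding site falls within the pattern TGANTCA. Fosl2 made up 64.0% and 63.9% of the Fos family level per kilobase in mutant libraries 18 and 14, against 66.3% and 65.8% in wild-type libraries 15 and 20. Fos followed with 34.6% and 34.4% in mutant and 30.9% and 32.5% in wild type. Jund likewise took 66.4% and 64.3% of the Jun family level in mutant libraries 18 and 14, against 69.3% and 71.2% in wild-type libraries 15 and 20. These shares moved by a few percentage points between libraries, although the summed Jun family level was 2088 and 3084 per kilobase in mutant libraries 18 and 14 and 2488 and 2258 in wild-type libraries 15 and 20.

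Fos is a Fos-family subunit of AP-1. Its levels were 503 and 568 normalized counts in mutant libraries 18 and 14, against 457 and 432 in wild-type libraries 15 and 20. Both mutant libraries lay above both wild-type libraries, with the widest gap between mutant 14 and wild-type 20. The difference, mutant minus wild type on the log2(value + 0.5) scale used throughout, was 0.27 (SE 0.16, 95% interval -0.10 to 0.64; limma, adjusted p = 0.9999). Fosb, a second Fos-family subunit, had 42.5 and 66.7 in mutant libraries 18 and 14, against 95.2 and 52.1 in wild-type libraries 15 and 20. Its genotypes overlapped, its highest library was wild-type 15, and the spread within each genotype exceeded the difference between them (-0.40, SE 0.40, interval -1.33 to 0.53). Fosb stood at 0.0846 and 0.117 of the Fos level in mutant libraries 18 and 14 and at 0.208 and 0.120 in wild-type libraries 15 and 20, without correction for length.

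Jun, the partner of Fos, had 1599 and 2479 normalized counts in mutant libraries 18 and 14, against 1787 and 1446 in wild-type libraries 15 and 20. Mutant 14 was the highest and mutant 18 lay between the wild-type libraries, so the genotypes overlapped. The difference was 0.31 (SE 0.22, interval -0.20 to 0.82). Junb, which also pairs with Fos proteins, had 463 and 745 in mutant libraries 18 and 14, against 468 and 453 in wild-type libraries 15 and 20. Here 3 libraries were nearly level and mutant 14 stood apart, and the genotypes overlapped. The difference of 0.35 (SE 0.23, interval -0.19 to 0.89), the largest of the 10 in the positive direction, was 0.0072 without that library. Prdx2, a peroxiredoxin gene annotated over part of Junb on the other strand, was at 6449 and 6361 in mutant libraries 18 and 14 and at 5317 and 7148 in wild-type libraries 15 and 20. Whether the authors counted reads by strand is not given in the sources used here, so Junb values are uncertain to that extent. Junb and Prdx2 ordered the libraries differently.

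The Egr genes encode zinc finger transcription factors induced by the same signals. Egr1 had 1595 and 1619 normalized counts in mutant libraries 18 and 14, against 1675 and 1501 in wild-type libraries 15 and 20. It was the steadiest of the 10, with the highest library 1.12-fold above the lowest, and its difference was 0.02 (SE 0.13, interval -0.29 to 0.33). Egr2 had 153 and 151 in mutant libraries 18 and 14, against 157 and 110 in wild-type libraries 15 and 20. Only wild-type 20 was low, and the genotypes overlapped (0.21, SE 0.26, interval -0.38 to 0.81). Egr3, at 656 and 932 in mutant libraries 18 and 14 and 787 and 553 in wild-type libraries 15 and 20, varied more than Egr1. Within both genotypes its libraries differed by 0.51 on the log2 scale, above the 0.24 between genotypes (SE 0.23, interval -0.29 to 0.78). Egr3 stood at 0.411 and 0.575 of the Egr1 level in mutant libraries 18 and 14 and at 0.470 and 0.368 in wild-type libraries 15 and 20. Egr4 was listed at 0 in 3 libraries and at 3.16 in wild-type 15.

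Nr4a1 encodes an orphan nuclear receptor of the NR4A family. It had 448 and 504 normalized counts in mutant libraries 18 and 14, against 648 and 568 in wild-type libraries 15 and 20. Both mutant libraries lay below both wild-type libraries, the opposite direction to Fos and Dusp1, whose genotypes were also separate. The difference was -0.35 (SE 0.16, interval -0.73 to 0.02; limma, unadjusted p = 0.0622, adjusted p = 0.9999), with the smallest unadjusted p of the 10. Relative to Fos, Nr4a1 was at 0.891 and 0.887 in mutant libraries 18 and 14 and at 1.42 and 1.31 in wild-type libraries 15 and 20. Its relative Nr4a2 did not separate the genotypes (391 and 395 in mutant, 438 and 346 in wild type). Nr4a3 was at 65.6 and 79.0 in mutant and at 92.4 and 82.2 in wild type. Both mutant libraries lay below both wild-type libraries there, as for Nr4a1 (-0.27, SE 0.28).

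Atf3, a stress-induced basic leucine zipper factor, had 127 and 162 normalized counts in mutant libraries 18 and 14, against 133 and 107 in wild-type libraries 15 and 20. The genotypes overlapped, with mutant 14 highest and wild-type 20 lowest (0.27, SE 0.26, interval -0.33 to 0.86). Dusp1 encodes a phosphatase that switches MAP kinases off and so limits the signal that induces it. It had 621 and 757 in mutant libraries 18 and 14, against 592 and 527 in wild-type libraries 15 and 20. Both mutant libraries lay above both wild-type libraries, and the difference was 0.30 (SE 0.17, interval -0.09 to 0.68; limma, adjusted p = 0.9999). Ergic1, annotated over part of Dusp1 on the other strand, was at 3223 and 3504 in mutant and 3740 and 3505 in wild type. Dusp6, the feedback phosphatase of the ERK branch, was the most abundant of the 4 Dusp genes per kilobase. In the opposite direction to Dusp1, both its mutant libraries lay below both wild-type libraries. Its levels were 1588 and 1661 in mutant libraries 18 and 14, against 1785 and 1806 in wild-type libraries 15 and 20.

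**Figure D2:**
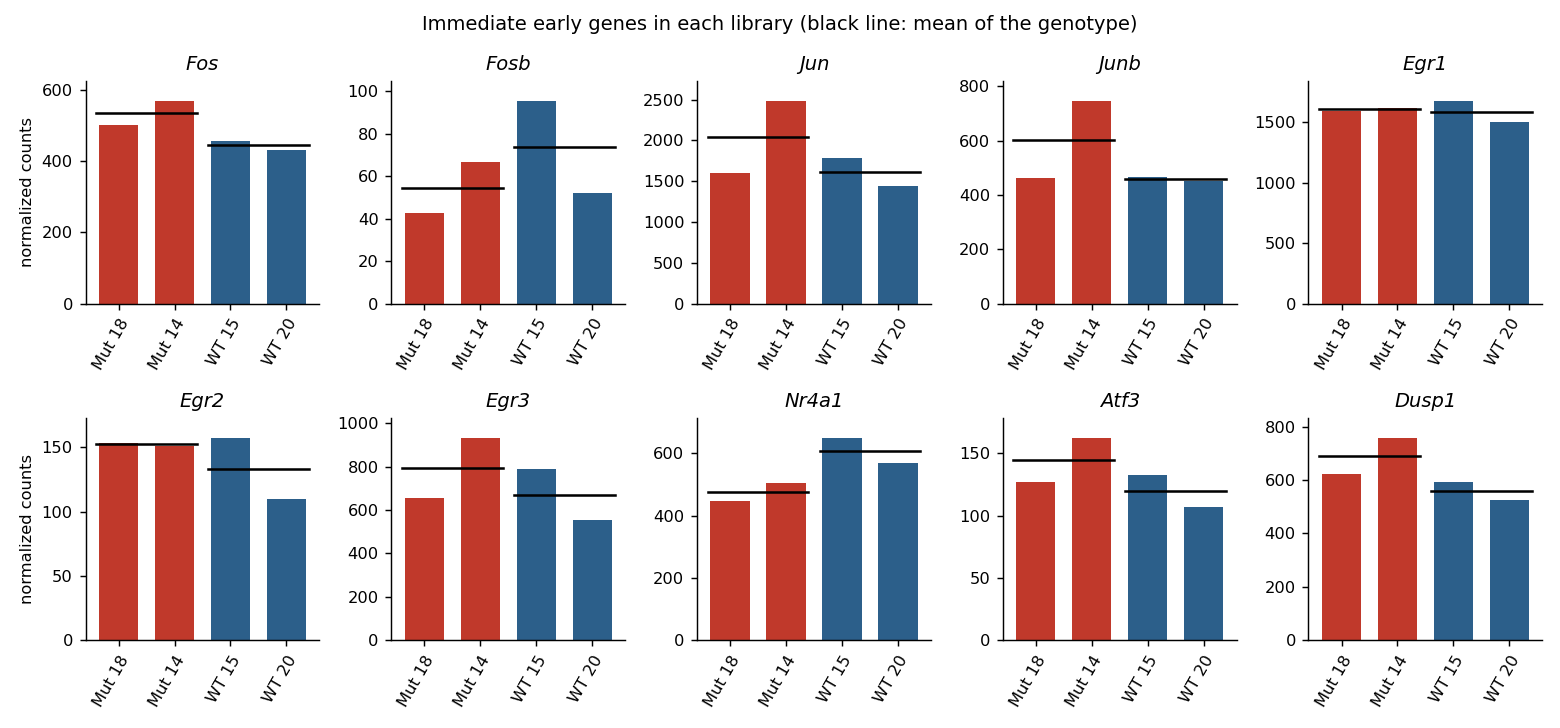
Normalized counts of each immediate early gene (vertical axis, from 0) in mutant libraries 18 and 14 (red) and wild-type libraries 15 and 20 (blue), with the mean of each genotype as a black line (n = 2). Fos and Dusp1 have both red bars above both blue bars, Nr4a1 has both below, and in Jun and Junb only mutant library 14 stands high.

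Between genotypes, none of the 10 genes passed the threshold of an adjusted p of 0.05 (limma, 0 of 10; 0.0111% of 17979 tested genes passed). None reached an unadjusted p under 0.05 either, where 4.27% of tested genes did. The 95% interval of all 10 included 0. The means of 8 were higher in mutant, against 50.6% of tested genes, and the median difference over the 10 was 0.26, against 0.0025 over all tested genes. That median was 0.0079 without mutant library 14 and 0.050 without wild-type library 20, with 6 and 5 genes then higher, and 0.38 and 0.40 without wild-type 15 and mutant 18. In 3 genes the genotypes did not overlap, against 27.4% of tested genes: Fos and Dusp1 were higher in mutant and Nr4a1 was lower. The same 3 were the members whose genotype difference was larger than the differences within both genotypes (17.2% of tested genes). An exact permutation test of 2 libraries against 2 cannot give a two-sided p under 0.333.

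**Figure D3:**
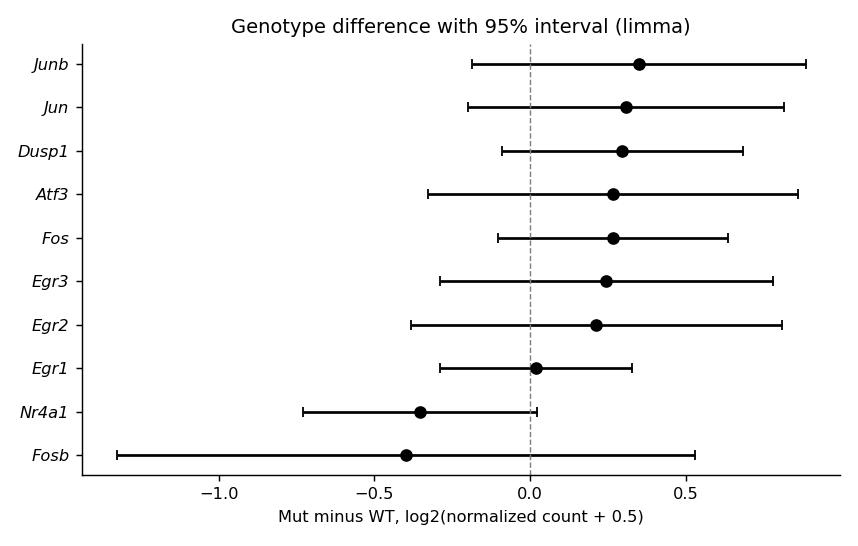
Difference of each immediate early gene, mutant minus wild type on the log2(normalized count + 0.5) scale (horizontal axis), with its 95% interval from limma (n = 2 per genotype). All 10 intervals include 0, and Nr4a1, at -0.35, has the one that ends nearest to it, at 0.02.

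Within each genotype the members differed mostly in a common direction. All 10 were higher in wild-type library 15 than in wild-type library 20, where 51.5% of tested genes were. In the mutants, 9 of 10 were higher in library 14 than in library 18 (52.0% of tested genes), with Egr2 at 151 in library 14 and 153 in library 18. The 9 that followed both orders compare with 31.8% of tested genes. Mutant library 14 was the highest of the 4 libraries in 6 genes, Fos, Jun, Junb, Egr3, Atf3 and Dusp1 (25.9% of tested genes), and wild-type library 15 in the other 4 (26.6%). Wild-type library 20 was the lowest in 8 (23.3%), and mutant library 18 in Fosb and Nr4a1 (26.9%). The summed level of the 10 was 6207 and 7984 in mutant libraries 18 and 14 and 6799 and 5748 in wild-type libraries 15 and 20, of which Jun and Egr1 made up the larger part. The highest library exceeded the lowest by a median of 1.48-fold over the 10, from 1.12-fold in Egr1 to 2.24-fold in Fosb, against a median of 1.33-fold over all tested genes. No replicate measures the difference between single libraries, so none of these orders was tested.

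**Figure D4:**
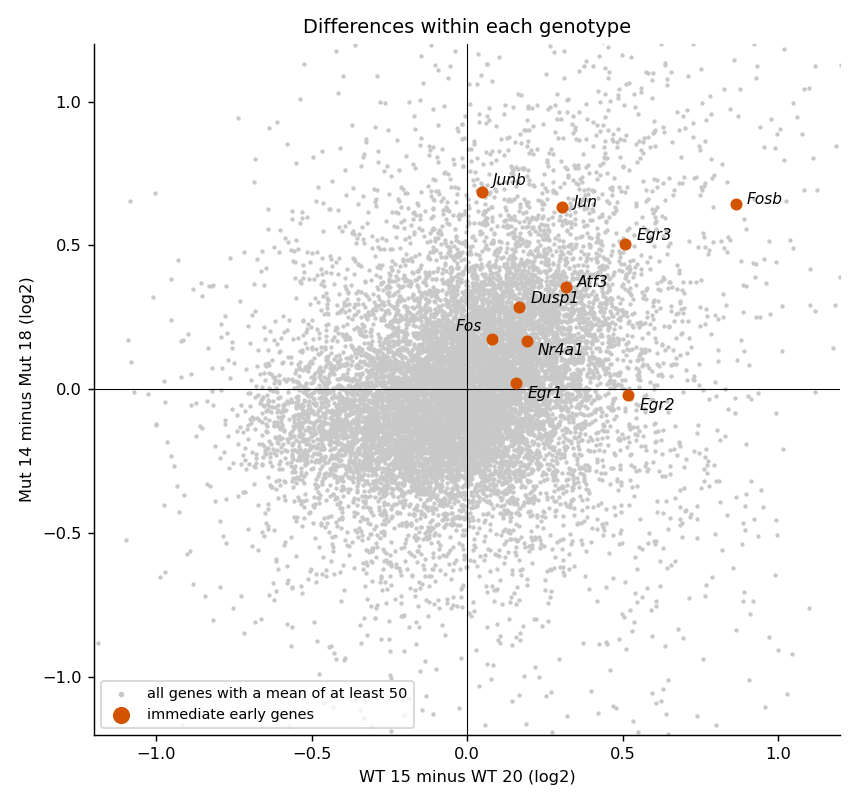
Log2 difference of wild-type library 15 minus 20 (horizontal axis) and of mutant library 14 minus 18 (vertical axis) for the 10 immediate early genes (orange) and for all genes with a mean of at least 50 (grey; 232 of these lie outside the axes). All 10 members lie to the right of 0 and 9 lie above 0, with Fosb farthest along the horizontal axis and Junb along the vertical.

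Markers of other cell types also differed between the libraries, some in the same orders. All 8 erythroid markers were higher in mutant 14 than in mutant 18 and in wild-type 15 than in wild-type 20, with none at 0 in every library, and their sums were 108875 and 269894 in mutant libraries 18 and 14 and 259951 and 112300 in wild-type libraries 15 and 20. All 12 keratinocyte markers were highest in mutant 14, but 5 of 12 were higher in wild-type 15 than in wild-type 20, with sums of 186113 and 278475 in mutant libraries 18 and 14 and 119695 and 120005 in wild-type libraries 15 and 20. The salivary gland markers summed to 577 and 6846 in mutant and 498 and 382 in wild type. Tooth markers ran the opposite way in the wild types, where only 1 of 12 was higher in library 15. All 8 muscle markers were higher in wild-type 15 than in wild-type 20 and 0 of 8 in mutant 14 than in mutant 18; they summed to 187584 and 99799 in mutant libraries 18 and 14 and to 165350 and 123231 in wild-type libraries 15 and 20. Macrophage and mast cell markers summed to 12724 and 12268 in mutant and 9109 and 10477 in wild type, neuron and Schwann cell markers to 1846 and 2720 in mutant and 1735 and 1751 in wild type, and osteoblast markers to 528002 and 493338 in mutant and 650404 and 641989 in wild type. All 8 osteoblast markers were lower in mutant, 6 of them without overlap. All 12 keratinocyte markers were higher in mutant, 10 of them without overlap. Also higher in mutant without overlap were 7 of 10 macrophage and mast cell markers. The same held for 4 of 8 neuron and Schwann cell and 5 of 7 tested salivary gland markers. For comparison, 50.6% of tested genes were higher in mutant and 27.4% did not overlap in either direction. None of these markers passed the adjusted threshold (limma). In bulk tissue a change in the share of a cell type and a change in RNA per cell cannot be told apart, and the part of these markers in the levels of the immediate early genes was not tested.

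A wider list of 49 other immediate early genes, of which 48 were tested, was looked at in the same way. Of the 48, 26 (54.2%) were higher in mutant 14 than in mutant 18 and in wild-type 15 than in wild-type 20, against 31.8% of tested genes. Mutant 14 was the highest library in 20 (41.7%, against 25.9%), and wild-type 20 the lowest in 11 (22.9%, against 23.3%). Between genotypes 0 passed (limma, with 2 of 48 at an unadjusted p under 0.05, or 4.17%, against 4.27% of tested genes). In mutant 21 were higher (43.8%, against 50.6%) and 27 lower, and the median difference was -0.02. The genotypes did not overlap in 17 of the 48 (35.4%, against 27.4% of tested genes), 6 of them higher and 11 lower in mutant. The smallest unadjusted p belonged to Klf2, a shear-stress-responsive factor of endothelium, with 486 and 452 normalized counts in mutant libraries 18 and 14 and 665 and 603 in wild-type libraries 15 and 20 (-0.43, SE 0.15; limma, adjusted p = 0.969). Of the 8 endothelial markers, 2 were lower in mutant without overlap, where 27.4% of tested genes did not overlap in either direction. By their means the 8 were split, with 5 lower in mutant and 3 higher. Their sums were 12801 and 12220 in mutant libraries 18 and 14 and 12745 and 12633 in wild-type libraries 15 and 20. Tie1, a receptor tyrosine kinase of endothelium, was at 1075 and 1153 in mutant and 1295 and 1269 in wild type. The tight junction gene Cldn5 was at 337 and 375 in mutant and 389 and 421 in wild type. Both were lower in both mutant libraries than in both wild types, as Klf2 was. Within the mutants both had the opposite order to Klf2. Within the wild types Tie1 had the order of Klf2 and Cldn5 the opposite order. Tek and Emcn had higher means in mutant. Tek was at 1366 and 1206 in mutant and 1071 and 1219 in wild type, and Emcn at 902 and 809 in mutant and 665 and 878 in wild type. The part of endothelial content in the Klf2 values was not tested. Plk3, a stress-responsive polo-like kinase, was at 305 and 508 in mutant libraries 18 and 14 and at 302 and 192 in wild-type libraries 15 and 20 (0.71, SE 0.30), with mutant 14 far above the rest. Ier3, an early response gene that modulates survival signalling, was at 198 and 199 in mutant and 128 and 175 in wild type (0.40, SE 0.24). Ptgs2, the inducible cyclooxygenase, was at 58.4 and 54.0 in mutant and 76.5 and 82.4 in wild type (-0.50, SE 0.28). Ier2, which is induced together with Fos in many cells, was level between genotypes, at 487 and 598 in mutant libraries 18 and 14 and 553 and 528 in wild-type libraries 15 and 20.

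The kinases and factors that induce these genes were looked at next. Of 20 kinases and promoter-binding factors, 0 passed (limma, with 0 at an unadjusted p under 0.05, against 4.27% of tested genes). In mutant 8 were higher and 12 lower, where 50.6% of tested genes were higher, and the median difference was -0.01. Elk1 and Elk3, ternary complex factors that bind beside serum response factor, were at 673 and 701 and at 2037 and 2355 in mutant libraries 18 and 14, against 896 and 676 and 2466 and 2419 in wild-type libraries 15 and 20. The stress kinase Mapk14 was at 2186 and 2631 in mutant and 2267 and 2141 in wild type. Among 18 AP-1 and EGR partners and targets, 0 passed (limma, with 1 at an unadjusted p under 0.05, against 4.27% of tested genes). In mutant 6 were higher (50.6% of tested genes) and 12 lower, with a median of -0.11. Batf3, a basic leucine zipper partner of Jun proteins, was at 17.2 and 21.4 in mutant and 31.9 and 46.0 in wild type (-0.98, SE 0.41). Timp1, a metalloproteinase inhibitor, was at 1599 and 920 in mutant libraries 18 and 14 and at 1459 and 2312 in wild-type libraries 15 and 20, opposite in order to Jun.

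Heat shock and stress genes are a second group known to respond to tissue handling. Of 18, 0 passed (limma, with 3 at an unadjusted p under 0.05, against 4.27% of tested genes). In mutant 14 of the 18 were higher, against 50.6% of tested genes, and the median difference was 0.09. The genotypes did not overlap in 6 of the 18, all higher in mutant, where 27.4% of tested genes did not overlap in either direction. Hspa1b, an inducible Hsp70 gene, was at 752 and 1157 in mutant libraries 18 and 14 and at 566 and 545 in wild-type libraries 15 and 20. Its difference was 0.75 (SE 0.21; limma, adjusted p = 0.695). Hspa1b and its near-identical copy Hspa1a share sequence, so reads could be divided between them. Unlike Jun and Junb, Hspa1b was higher in both mutant libraries than in both wild types. The small heat shock gene Hspb1 had the same order, at 3277 and 4862 in mutant and 3026 and 2745 in wild type (0.47, SE 0.20), and Hmox1, a heme oxygenase, was at 835 and 818 in mutant and 602 and 736 in wild type. Of the 18, 6 followed the orders of mutant 14 above 18 and wild-type 15 above 20 (31.8% of tested genes), and 5 were highest in mutant 14 (25.9%), both near the share over all tested genes.

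The closeness of profiles was measured as the root mean square distance between log2 values centred on each gene's own mean, over 4 libraries. Within the 10, Fos and Dusp1 were the closest pair (0.0520), followed by Atf3 and Dusp1 (0.0599) and by Egr3 and Atf3 (0.0868). Fosb and Junb were the farthest apart (0.474). Outside the 10, the genes nearest to Fos among 13509 with a mean of at least 50 were Rab8b (0.0155), a small GTPase of vesicle transport, Fam110b (0.0205), Fez1 (0.0240), a kinesin adaptor, the chloride transporter Clcn3 (0.0273) and the arrestin-domain gene Arrdc2 (0.0281). Rab8b was at 1429 and 1569 in mutant libraries 18 and 14 and at 1288 and 1216 in wild-type libraries 15 and 20. None of these 5 is in the immediate early lists, and 77 genes lay nearer to Fos than Dusp1 did. With 4 libraries many genes share any given profile.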

How the data were processed

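Per the labels, total RNA was purified on a commercial kit and sequenced as strand-keeping mRNA libraries. The deposited values are a signal, counts the authors had normalized, with decimals. The authors used DESeq2 and mm10, per the submitters' processing notes, with no version. The aligner, the counter, whether strand was used and the gene models are not stated by these sources. Because the values were normalized before deposit, no counting error can be computed from them.

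Values were transformed to log2(value + 0.5). The fit by genotype took 17979 of 24972 genes, those averaging at least 1 (5583 were at 0 throughout), in limma 3.58.1 (R 4.3.3), with variances moderated along a trend, and Benjamini-Hochberg adjustment over all of them at 0.05. Library codes are not shared between genotypes, so nothing was paired. Levels per kilobase used the union of exons in GENCODE M21 (GRCm38, the assembly mm10 denotes), which may not be the authors' annotation. Promoters came from RefSeq GRCm38.p6. The scripts were tested on simulated data.

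The members and the gene lists were chosen with earlier results of these data known. Named genes were the 10 members, up to 4 genes of smallest p in a list, 4 sentinels and the 5 genes nearest to Fos. Naming the family relatives was a choice made with their values in view, and not every gene the rule takes is printed. Alternatives covered pseudocount, filter, scaling, variance moderation and each library left out.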

Additional observations from a re-analysis of the deposited data

How the results depend on the processing

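The count of immediate early genes past the threshold was 0 of 10 under all 13 alternatives run, and so was that of the other immediate early genes. With scalings other than the authors' (equal library totals, trimmed mean, upper quartile) the median of all genes lay at most 0.012 from 0, and 8 of 10 members stayed higher. The median difference over the 10 ranged from 0.0079 to 0.40 with 1 library left out. Over all genes 2 passed in the fit reported. The count was 4 with pseudocount 1 and with robust moderation, 1 with no filter and with no mean-variance trend, and 0 to 6 with 1 library left out. Directions that turned were those of Fosb without wild-type 15 (0.033), Jun without mutant 14 (-0.0072), Egr3 without mutant 14 (-0.0084) and without wild-type 20 (-0.0096), Egr1 without wild-type 20 (-0.060) and Egr2 without wild-type 20 (-0.046). Over the fits with 1 library left out, the differences ran from -0.83 to 0.033 for Fosb, -0.0072 to 0.62 for Jun, -0.060 to 0.098 for Egr1, -0.046 to 0.47 for Egr2 and -0.0096 to 0.50 for Egr3. These fits assume that the lone sample varies like the other genotype. Without mutant 18, 2 of 10 members had an unadjusted p under 0.05 (limma, 0 adjusted), while the share over all tested genes was 6.76% in that fit and 4.27% with all 4 libraries. The cause of these moves was not tested. No paired analysis was possible because the genotypes share no library code. The 95% intervals of all 10 members included 0, which does not show that the genotypes were alike.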
